A study of Mus musculus with 12 samples.

Results

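The 6 hearts described here carried a Jarid2 deletion in heart muscle and were taken at 2 ages, 3 at postnatal day 10 (P10) and 3 at 7 months. They were chosen by their labels alone, and they are 6 of the 12 libraries of the study. The comparison sets the older against the younger mutants across all genes, so that a positive log2 change is a higher level at 7 months. The other 6 libraries, controls at the same ages, show whether an age change differed between genotypes. They were also part of the same fit, and so bear on the filter, scaling and spread behind each p-value in mutants. Every animal, controls included, was Jarid2 f/f, read here as a floxed allele on both chromosomes, on a mixed 129/Svj and C57BL/6 background. Mutants carried in addition the allele written aMHC-C/+, read here as Cre recombinase under the promoter of alpha myosin heavy chain, so that recombination is limited to cells that use this promoter and other heart cells keep the intact gene. RNA came from frozen hearts, was selected for poly-A tails and was sequenced. Each age was sampled in different animals as far as the labels tell, and nothing in them ties a P10 heart to a 7-month heart.

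Jarid2 is a DNA-binding partner of Polycomb repressive complex 2 (PRC2), which marks histone H3 with methyl groups and keeps developmental genes silent. In the weeks after birth the rodent heart stops dividing its muscle cells, exchanges fetal for adult isoforms of contractile proteins, turns from glucose to fatty acids as fuel and builds its mature calcium stores. A failing heart is known to turn some fetal genes on again, above all those of the natriuretic peptides. The title of the study names dilated cardiomyopathy, in which the chambers enlarge and contraction weakens, as the outcome of this deletion. Within the mutants alone, normal growth after P10 and the course of the deletion cannot be told apart, so for many genes and lists the age change in controls is given beside that in mutants. Where it is not given, controls may share the change or differ in it.

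The 6 mutant libraries held 37710274 to 52926715 estimated counts, and so were of like depth. Of the 6 control libraries, P10 control 2 held only 241419, and the other 5 held 37624037 to 45740229. Transcripts of the mitochondrial genome took 36.09% to 36.53% of counts in P10 mutants and 33%, 40.02% and 37.89% in 7-month mutants 1, 2 and 3. Levels below are in CPM, the reads of a gene row scaled to a common library total. Myh6, a defining heart muscle transcript, read 15060, 15370 and 14020 CPM in P10 mutants and 9762, 12120 and 10310 CPM in 7-month mutants, and only 2 lung markers passed the filter on low counts. A sex-linked difference went with age. Xist, made from the inactive X chromosome, read 376, 0.64 and 291 CPM in P10 mutants 1, 2 and 3 and 0.378, 0.631 and 0.988 CPM at 7 months, while the Y-linked Eif2s3y read 0.0753, 59.2 and 23.8 CPM and then 40.4, 40.8 and 42.8 CPM. P10 mutant 1 thus had a female pattern, P10 mutant 2 a male pattern, P10 mutant 3 transcripts of both kinds, and all 7-month libraries a male pattern. Sex and age can therefore not be fully told apart, and their part in the other results was not tested. P10 mutant 2, with the male pattern, lay with the other P10 mutants on the first principal component of the 6 libraries, which held 71.67% of their variance and placed P10 at -62.53 to -55.71 and 7 months at 53.73 to 61.07. On the second component, with 9.813%, 7-month mutant 1 lay at -38.33 and 7-month mutant 2 at 34.09. 7-month mutant 1 also held far more RNA of atrial muscle than its companions, with 216, 9.31 and 14.1 CPM of Myl7 and 51.9, 1.62 and 2.04 CPM of Sln over the 3 libraries. In P10 mutants these were 106, 34 and 214 CPM and 10.8, 3.43 and 19.3 CPM. These transcripts thus varied at both ages, and their part in the other results was not tested.

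edgeR's quasi-likelihood test was run on 15478 gene rows, of which 7480 passed an adjusted p of 0.05 in mutants (48.3%), 3776 of them higher at 7 months (24.4%) and 3704 lower (23.9%). With RLE scaling these were 4062 and 3372, and with DESeq2 3099 and 2343. The median log2 change over all rows was -0.01. Changes of more than 2-fold comprised 1560 rises and 1144 falls, and changes of more than 8-fold 209 rises and 90 falls. Because so large a share of all rows passed, the counts given below for groups of genes are read against these shares. In controls the same contrast called 7770 rows (50.2%). Of the mutant calls, 4960 were also called in controls in the same direction, which is 66.3% of the mutant calls and 63.8% of the control calls. Another 108 were called in opposite directions. The direct test of the age change in mutants minus that in controls called 1454 rows (9.39%), 756 with a more positive change in mutants (4.88%) and 698 with a more negative one (4.51%). This last test rests on single libraries. It called 184 rows without P10 control 1, 290 without P10 mutant 2, 466 without 7-month mutant 3, 596 without 7-month control 3, 621 without P10 mutant 1, 638 without 7-month control 2, 732 without P10 control 3 and 749 without 7-month mutant 1, but 2462 without 7-month mutant 2 and 2548 without 7-month control 1. It was therefore repeated for each gene with each of the 12 libraries removed in turn, called a removal below. Of the 62 genes named here whose difference passed, 15 kept that call under all 19 alternative analyses, the 12 removals among them. The other 47 lost it in some removal, and P10 control 1 was among the libraries in question for each of them except Myh6 and Dbh. Where none of a group is said below to have changed one way, edgeR's test had at most 1 such member at an unadjusted p of 0.05, DESeq2 called 0, and voom called at most 1.

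**Figure D1:**
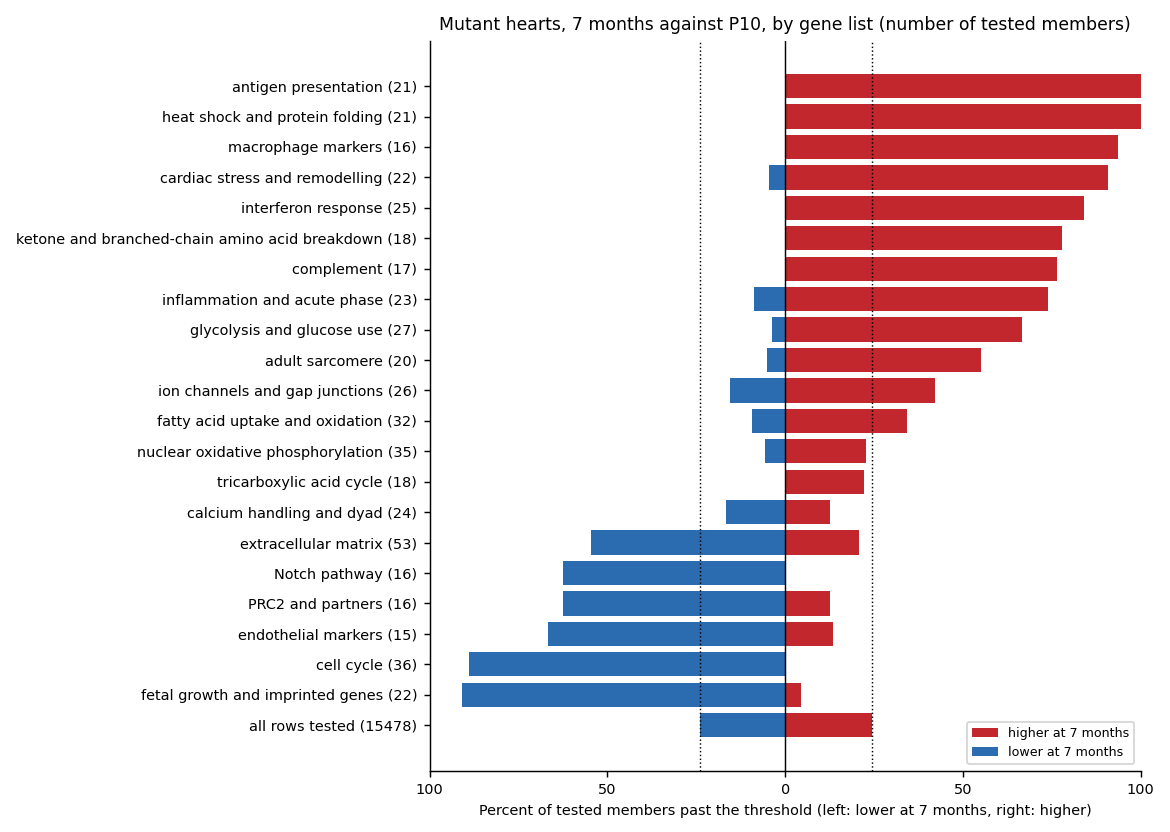
Share of the tested members of 21 gene lists that were higher (right, red) or lower (left, blue) at 7 months than at P10 in mutant hearts, in percent, with the number of tested members in parentheses and all 15478 rows at the bottom. Dotted lines mark the shares over all rows, 24.4% higher and 23.9% lower. All 21 tested members of the antigen presentation list and all 21 of the heat shock list were higher, and 32 of 36 cell cycle genes were lower.

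Among single genes, the chemokine Ccl8 went from 0.0251, 0.0533 and 0.0191 CPM to 17.5, 29.3 and 35.7 CPM (log2 change 9.55, SE 0.64, adjusted p = 1.18e-06), a 748-fold rise from a P10 level of only a few reads. Cxcl14, another chemokine, rose from 0.251, 0.16 and 0.0766 to 25.8, 33.1 and 34.2 CPM (log2 change 7.61). Among the others of the 12 largest rises were Inmt, an N-methyltransferase, Ifi205, an interferon-inducible gene, Bdh1, Serpina3n, Hspa1a, Hspa1b, Mmp3, Pla2g2d, a secreted phospholipase, and Scn4b, with log2 changes from 5.86 (Scn4b) to 8.14 (Inmt). Controls rose too for Ccl8 (6.14), Cxcl14 (7.29) and Ifi205 (5.76), while their changes in Hspa1a (0.59) and Hspa1b (0.81) did not pass. The 12 largest falls ran from -3.80 (Igfbpl1) to -8.13 (Tnni1). They comprised Tnni1, Dlk1, Igf2 and H19, described below, the matrix collagen Col26a1 (-4.82), the secreted Cthrc1 (-3.92) and Igfbpl1, the proteases Cpa1 (-5.20), Cpz (-4.34) and Adamts17 (-4.05), and rows of Plk4 and Vash2. The Plk4 value is that of the coding row (-6.07). The separate non-coding row of Plk4 read 0, 0.587 and 0 CPM at P10 and 2.16, 2.07 and 1.91 CPM at 7 months, and with both rows summed the change was -1.47, adjusted p = 1.28e-05. That of Vash2 is the non-coding row (-5.17).

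Jarid2 itself (chr13:44730774-44921643 in GRCm38.p6) was measured in each library. It read 36.1, 41.7 and 33.4 CPM in P10 mutants and 13, 10.6 and 11.7 CPM in 7-month mutants, so that every 7-month value lay below every P10 value. The fall of 3.14-fold (log2 change -1.65, SE 0.11, adjusted p = 7.62e-08) compares with a log2 change of -1.0 in controls, from 32.4, 33.3 and 36.9 to 17.3, 17.8 and 16.6 CPM. The difference between these changes was -0.65 (adjusted p = 0.024, lost in 4 of 12 removals). At P10 the levels of the 2 genotypes overlapped. Reads of the whole gene are counted here, also those outside the deleted part and those of cells without Cre, so the level does not measure how complete the deletion was.

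Other subunits and partners of PRC2 mostly fell with age. Of 16 tested members of this list, 10 fell and 2 rose, with a median of -0.93 in mutants and -0.29 in controls. Taken gene by gene, the age change in mutants minus that in controls had a median of only -0.23. By the direct test 2 had a more negative age change in mutants and none a more positive one. The 2 became 0 without P10 control 1, P10 mutant 2 or 7-month mutant 3. Ezh2, the catalytic subunit of dividing cells, fell from 13.2, 12.1 and 15 to 5.42, 4.51 and 5.25 CPM (log2 change -1.41, SE 0.13, adjusted p = 1.78e-06). Ezh1, the catalytic subunit that remains in resting cells, rose from 23.6, 22.5 and 22.8 to 27.4, 30.1 and 33.3 CPM (log2 change 0.40). On the TPM scale, which corrects for transcript length, Ezh2 made up 48.4% ± 2.77 (SD, n = 3) of Ezh1 and Ezh2 together in P10 mutants and 21.3% ± 2.54 in 7-month mutants. The accessory subunits Suz12 (-0.74), Mtf2 (-1.64, or -2.25 without 7-month mutant 2) and Phf19 (-1.12) fell and Phf1 rose (0.98). Kdm6a and Kdm6b, demethylases that remove the same mark, fell by 1.20 and 1.28. The part of the sex-linked difference between the ages, given above, in the fall of Kdm6a was not tested. Of 26 tested developmental regulators that PRC2 is known to bind in other tissues, 4 rose (2 without P10 mutant 2 or 3 or 7-month mutant 1) and 10 fell. Sox11, a neural and fetal transcription factor, went from 4.04, 4.02 and 3.27 to 0.111, 0 and 0.0439 CPM (log2 change -6.10, or -7.21 without 7-month mutant 1).

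Contractile genes exchanged isoforms with age, and the troponin and myosin pairs did so in opposite senses. Troponin I, the inhibitory subunit of the thin filament, is made from Tnni1 in the fetus and from Tnni3 in the adult heart. Tnni1 (chr1:135783033-135810989) went from 488, 467 and 719 CPM at P10 to 2.11, 1.89 and 1.98 CPM at 7 months, a 279-fold fall (log2 change -8.13, SE 0.44, adjusted p = 3.72e-07). In controls it reached 0.18, 0.304 and 0.294 CPM, lower than in each 7-month mutant, and the difference between the age changes was 2.45 (adjusted p = 0.0546), which missed the threshold. Tnni3 read 3617, 3193 and 3283 CPM and 3652, 4558 and 4223 CPM, a change of 0.30 that did not pass (adjusted p = 0.0845). Per length, Tnni1 made up 11.4% ± 2.77 of both troponins at P10 and 0.0378% ± 0.00579 at 7 months (SD, n = 3 each).

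In the myosin heavy chains the fetal form gained. Myh6 encodes the fast alpha chain of the adult mouse ventricle and Myh7 the slow beta chain of the fetal one. Myh6, with the values given above, showed a fall of 0.47 on the log2 scale (SE 0.15, adjusted p = 0.0184), while controls rose by 0.55. The difference was -1.01 (adjusted p = 0.0156, lost without P10 mutant 2). The fall in mutants missed the threshold when P10 mutant 1 or 2 or 7-month mutant 1 or 3 was left out, with values of -0.45 to -0.39. Myh7 read 150, 32.8 and 459 CPM at P10 and 3270, 718 and 1264 CPM at 7 months. The ages did not overlap, but the P10 hearts differed widely among themselves. Its change of 3.03 (SE 1.1, adjusted p = 0.0486) was lost in 9 of 15 alternative analyses. As a share of Myh6 and Myh7 per length, Myh7 went from 1.45% ± 1.52 to 13.8% ± 10.0, with a range of 5.56% to 25% over the 7-month mutants. Skeletal alpha actin, Acta1, read 28.3, 28 and 24.1 CPM and then 482, 94.5 and 336 CPM (log2 change 3.50, SE 0.72, adjusted p = 0.0036). Its share of Acta1 and cardiac actin Actc1 went from 0.358% ± 0.0131 to 3.62% ± 2.28.

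Of 20 tested genes of the adult sarcomere, 11 rose and 1, Myh6, fell, with a median of 0.36 in mutants and 0.58 in controls. The largest rises were those of Xirp2, an intercalated disc and actin-binding protein (85.8, 114 and 83.4 to 665, 378 and 530 CPM, 2.47), and of Tcap, the titin cap (1.67). Csrp3, a Z-disc LIM protein, rose by 1.08 and Mybpc3, myosin binding protein C, by 0.75. Cmya5, myospryn, rose by 1.09 in mutants and by 2.32 in controls (difference -1.23, adjusted p = 0.00543, kept in each removal). Ventricular light chain Myl2 (0.05, adjusted p = 0.799) and titin Ttn (0.25, adjusted p = 0.183) did not pass. Of 15 tested fetal and neonatal isoforms, 3 rose (Myh7, Acta1 and the myomesin Myom3, 1.65) and 4 fell (2 without 7-month mutant 2 or 3), among them the slow skeletal troponin T gene Tnnt1 (-1.25). In controls 3 of the 15 rose and 9 fell, and the medians were 0.14 in mutants and -1.34 in controls. The direct test called only 1 of the 15, more positive in mutants. This became 0 without P10 mutant 1 or 2, 7-month mutant 1 or 3 or 7-month control 2 or 3.

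**Figure D2:**
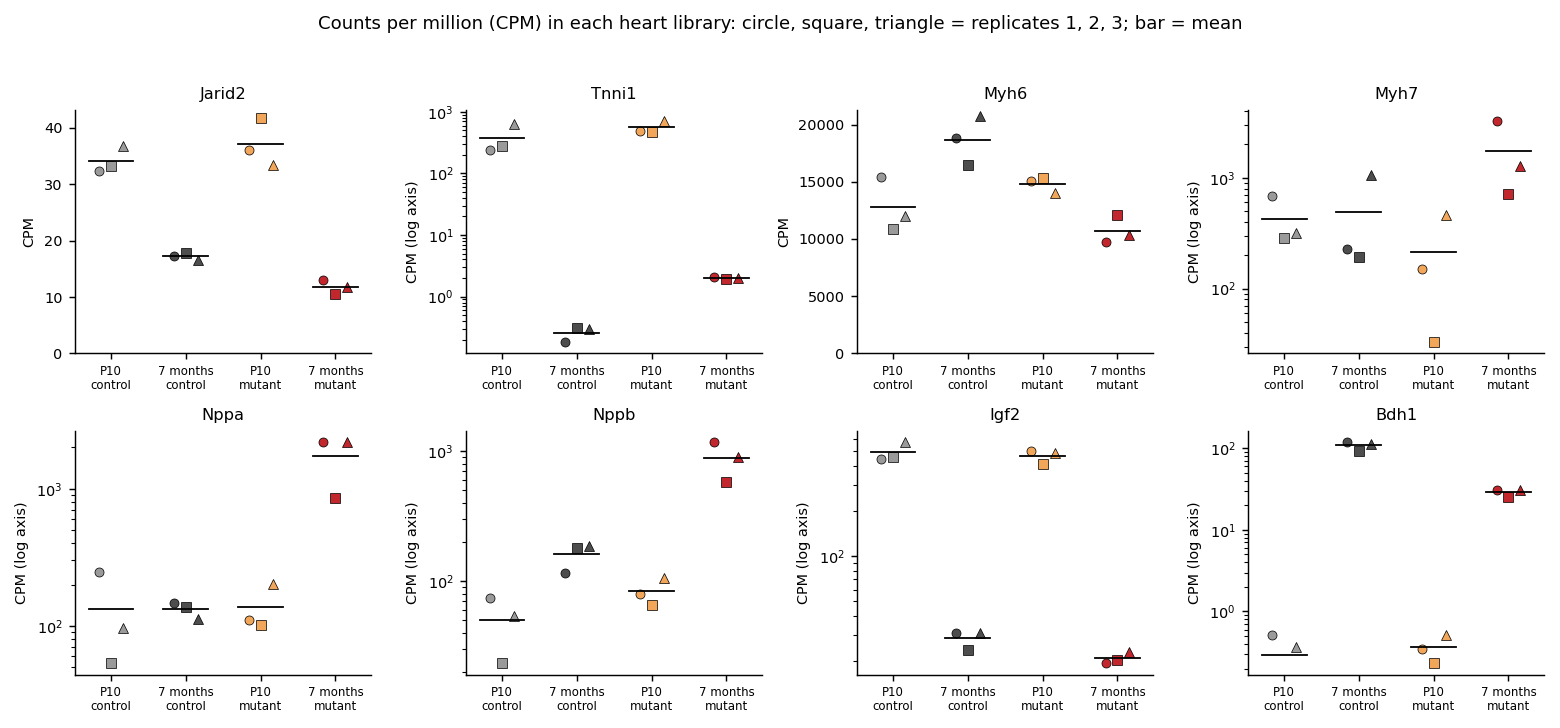
CPM of 8 genes in each of the 12 heart libraries, on linear axes for Jarid2 and Myh6 and log axes for the others, with replicates 1, 2 and 3 as circle, square and triangle and group means as bars. A library at 0 CPM is not drawn on a log axis (Bdh1 in P10 control 2), though it counts in the mean. The 7-month mutants lie above all other groups for Nppa and Nppb and below all others for Myh6 in mean, and both 7-month groups lie far below both P10 groups for Tnni1 and Igf2.

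Genes of cardiac stress rose together. Of 22 tested members of this list 20 rose and 1 fell, against 24.4% and 23.9% over all rows, and the median was 2.50 in mutants and 0.41 in controls. Nppa (chr4:148000722-148002074), the atrial natriuretic peptide, went from 111, 101 and 201 CPM to 2198, 857 and 2181 CPM, a 12.7-fold rise (log2 change 3.67, SE 0.55, adjusted p = 0.000558). Control hearts read 246, 53.3 and 96.2 CPM and then 147, 138 and 113 CPM, and the difference in age change was 3.85 (adjusted p = 0.0199, lost in 6 of 12 removals). Nppb, the second natriuretic peptide, rose from 79.6, 65.7 and 106 CPM to 1179, 579 and 900 CPM (log2 change 3.40, SE 0.34, adjusted p = 2.08e-05), with a difference from controls of 1.98 (adjusted p = 0.0286, lost in 8 of 12 removals). All 3 older mutants stood above all younger ones for both peptides, and 7-month mutant 2 was the lowest of the 3 in each case. Nppa is also a transcript of atrial muscle. Of 9 tested atrial markers, Nppa among them, 4 rose and 0 fell, and their sum was 648, 512 and 976 CPM in P10 mutants and 3496, 1526 and 2795 CPM in 7-month mutants, of which Nppa itself makes up a large part. The part of atrial tissue in the rise of Nppa was not tested.

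Several further members were nearly silent at P10. Gdf15, a stress-induced cytokine, read 0.377, 0.267 and 0.325 CPM and then 12.5, 1.98 and 4.96 CPM (4.33, or 3.44 without 7-month mutant 1). Sprr1a, a small proline-rich protein, rose from 0.0251, 0.0178 and 0.0766 to 3.91, 2.39 and 4.54 CPM (6.38, or 7.23 without P10 mutant 3), while the value in controls, 1.29, did not pass (difference 5.09, adjusted p = 0.0116, lost without P10 control 1). The osteopontin gene Spp1 rose by 2.16 in mutants and had a change of 0.10 that did not pass in controls (adjusted p of the difference = 0.00834, kept in each removal). Ankrd1, a stretch-sensitive titin-binding protein, was already high at P10 and rose from 581, 632 and 740 to 5227, 3428 and 4166 CPM (2.72), though its difference of 0.88 from controls missed the threshold (adjusted p = 0.0687). The acute-phase protein Serpina3n rose from 0.352, 0.871 and 1.13 to 60.5, 53.1 and 74.8 CPM (6.27), and the metallothionein Mt2 by 3.61. Ctgf, a matricellular protein, read 40.7, 42.5 and 55.1 CPM and then 510, 111 and 171 CPM. Its change of 2.52 dropped to 1.62 without 7-month mutant 1. Postn, the fibroblast protein periostin, was the 1 member that fell (-1.20, or -1.82 without 7-month mutant 1), a call lost without P10 mutant 3 or 7-month mutant 3. By the direct test 9 members had a more positive age change in mutants (2 without P10 control 1 and 15 without 7-month mutant 2).

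All 21 tested heat shock and folding genes rose in mutants, with a median of 1.31, and 0.68 in controls. The small heat shock proteins of muscle rose evenly. Cryab, alpha B crystallin, went from 562, 528 and 621 to 2124, 1923 and 2010 CPM (1.82) and Hspb8 from 128, 127 and 108 to 542, 478 and 504 CPM (2.07). Their co-chaperone Bag3, itself a cardiomyopathy gene, rose by 1.72. Controls rose as well, by 1.601 for Cryab, 1.569 for Hspb8 and 1.215 for Bag3. The stress-inducible chaperones were uneven. Hspa1a went from 2.24, 1.39 and 1.28 CPM to 298, 12.9 and 32.9 CPM, with 7-month mutant 1 far above its companions, and its change of 6.16 was 3.84 without that library. Hspa1b, a near-identical copy whose reads may be divided with Hspa1a, behaved alike (5.92, and 3.60 without it), as did Hsph1 (2.88 and 2.21). The constitutive Hspa8 rose from 1290, 1296 and 1386 to 2873, 2026 and 2196 CPM (0.84). In this list 3 genes passed the test of the difference between genotypes, 2 of them more positive in mutants (0 without P10 control 1 and 10 without 7-month mutant 2) and 1 more negative (0 without P10 mutant 2 or P10 control 1).

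Cell division genes fell in the mutants. Of 36 tested members 32 fell and none rose, and the median was -1.75 against -2.50 in controls. The summed level of the list was 772, 848 and 982 CPM at P10 and 469, 423 and 434 CPM at 7 months. Cdk1, the kinase that drives entry into mitosis, read 18.8, 21.3 and 33.4 CPM and then 6.44, 4.22 and 4.5 CPM (log2 change -2.28, SE 0.23, adjusted p = 7.50e-06). The 7-month controls lay lower, at 1.9, 2.66 and 2.41 CPM, and the difference in age change was 1.31 (adjusted p = 0.037, lost in 9 of 12 removals). Ccnb2, a cyclin partner of Cdk1, fell from 8.09, 10.8 and 15 to 3.18, 2.03 and 1.93 CPM (-2.24), and the proliferation marker Mki67 from 61.6, 70.2 and 95.7 to 20, 11.2 and 15.3 CPM (-2.29). Top2a, the topoisomerase of dividing cells (-2.32), Kif11, a spindle motor (-2.32), and Rrm2, a subunit of ribonucleotide reductase (-2.26), fell alike. For 10 of the 36 the age change was more positive in mutants than in controls by the direct test (0 without P10 mutant 1 or 2, P10 control 1, 7-month mutant 3 or 7-month control 3), and for none more negative. Whole hearts cannot show whether fewer cells of a type or less RNA per cell underlies a fall, here and below, nor which cell type it concerns. Among inhibitors of the cycle, Cdkn1c fell (34.3, 26.1 and 28.1 to 12.2, 12.3 and 17.4 CPM, -1.08). Cdkn1a, which encodes p21, read 31, 28.3 and 30.8 CPM and then 54.2, 31.3 and 41.4 CPM (0.49, adjusted p = 0.0405) and fell in controls (-1.02). Its call in mutants was lost in 9 of 15 alternatives, and its difference of 1.52 had an adjusted p of 0.0116.

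Promoters of cell division genes are known for 2 short elements, the CCAAT box and the cell cycle homology region (CHR, searched as TTTGAA). Both were searched on both strands in the 250 bases upstream of each start in the RefSeq promoter table (GRCm38.p6), where 27 of the 36 tested members had an entry. A CCAAT box stood in 21 of 27 (77.8%), against 34.5% of all 27025 promoters of the table, and a CHR in 8 of 27 (29.6%) against 16.3%. Both occurred together in 8 of 27 (29.6%), against 4.19% and 5.73%. Other lists held the CCAAT box too, at 60% for the tricarboxylic acid cycle and 30.8% for nuclear genes of the respiratory chain. The promoters of Cdk1 and Ccnb2, whose falls are given above, are shown because each holds both elements, in capitals, with no overlap between them. The first is chr10:69352913-69353162 and the second chr9:70421555-70421804, both on the minus strand and read 5′ to 3′.
Cdk1: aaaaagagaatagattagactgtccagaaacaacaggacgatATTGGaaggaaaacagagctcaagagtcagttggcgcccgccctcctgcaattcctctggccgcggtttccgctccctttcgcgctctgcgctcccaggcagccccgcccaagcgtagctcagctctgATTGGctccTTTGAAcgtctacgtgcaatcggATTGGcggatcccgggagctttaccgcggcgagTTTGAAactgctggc
Ccnb2: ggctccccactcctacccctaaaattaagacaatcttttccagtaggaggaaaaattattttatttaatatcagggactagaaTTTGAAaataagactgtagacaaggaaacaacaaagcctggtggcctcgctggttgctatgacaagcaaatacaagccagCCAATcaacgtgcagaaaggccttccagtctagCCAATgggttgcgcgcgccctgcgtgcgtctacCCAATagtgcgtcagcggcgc
In capitals, Cdk1 has 3 CCAAT boxes (as ATTGG, the other strand) and 2 CHR, and Ccnb2 has 3 CCAAT boxes and 1 CHR. A match describes letters only and shows no binding.

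**Figure D3:**
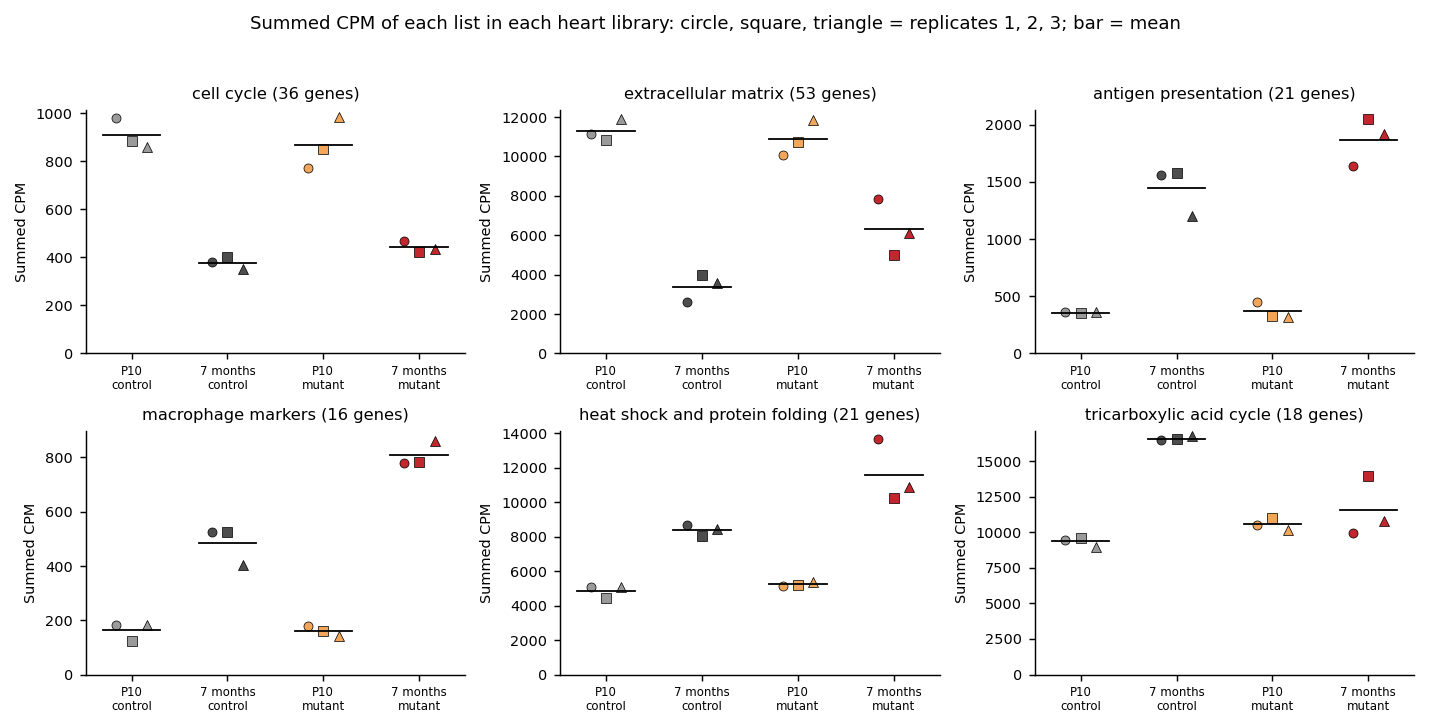
Summed CPM of 6 gene lists in each of the 12 heart libraries on linear axes from 0, with replicates 1, 2 and 3 as circle, square and triangle and group means as bars. In mutants the cell cycle sum drops from 772.5 to 982.5 CPM at P10 to 423 to 469.3 CPM at 7 months, the antigen presentation and macrophage sums rise without overlap, and the sum of the tricarboxylic acid cycle overlaps between ages.

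Fetal growth genes, many of them imprinted, showed falls of like size in both genotypes. Of 22 tested members 20 fell and 1 rose, with medians of -2.13 in mutants and -2.04 in controls. Igf2 (chr7:142650768-142666816), the fetal insulin-like growth factor, read 503, 408 and 485 CPM and then 19.3, 20.2 and 23.2 CPM, a 22.2-fold fall (log2 change -4.48, SE 0.15, adjusted p = 4.63e-10). Its neighbour H19, a non-coding RNA expressed from the other parental copy, fell from 375, 279 and 386 to 19, 16.6 and 13 CPM (-4.42). Dlk1, a membrane protein related to Notch ligands, went from 6.9, 3.95 and 6.3 to 0.0445, 0.0676 and 0.176 CPM (-5.84, or -6.59 without 7-month mutant 3), and the non-coding Meg3 of the same cluster fell by 2.51. Mest (-3.57), Plagl1, a transcription factor of this network (-3.43), Peg3 (-2.52) and Grb10, an adaptor that dampens insulin signals (-1.42), fell too. The member that rose was the proteoglycan Dcn (0.70). The difference between genotypes passed for 2 of the 22, one being Mest (1.3, adjusted p = 0.0253, lost in 7 of 12 removals). In the receptor branch, Igf1r fell by 0.52. The adaptor Irs1 went from 39.7, 52.1 and 36.8 to 16.4, 14 and 16 CPM (-1.47) and had a change of -0.09 that did not pass in controls (adjusted p of the difference = 0.0237, lost in 5 of 12 removals). Igfbp6, a binding protein with preference for Igf2, rose by 2.32.

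The matrix genes of growth fell and a smaller set rose. Of 53 tested members 29 fell and 11 rose, with a median of -0.67 in mutants and -1.59 in controls. Col1a1, of fibrillar type I collagen, read 491, 469 and 547 CPM at P10 and 191, 105 and 133 CPM at 7 months (log2 change -1.81, SE 0.27, adjusted p = 0.000206). In 7-month controls it read 35.8, 66.6 and 58.5 CPM, below each mutant of that age, and the difference was 1.63 (adjusted p = 0.0256, lost in 6 of 12 removals). Col3a1 fell from 1418, 1386 and 1618 to 565, 438 and 472 CPM (-1.58, difference 1.52, lost without P10 mutant 2 or P10 control 1). Elastin, Eln, fell from 320, 600 and 1029 to 88.7, 36.1 and 47.4 CPM (-3.50) and the fetal fibrillin Fbn2 by 2.94. Tnc, tenascin C, a protein of wound matrix, read 13.5, 10.7 and 17.7 CPM and then 9.76, 8.05 and 9.75 CPM, and fell far further in controls (-3.80, difference 3.20, adjusted p = 0.000243, kept in each removal). The fall of Tnc in mutants (-0.60) was lost without P10 mutant 3 or 7-month mutant 2, and that of Postn, given above, without P10 mutant 3 or 7-month mutant 3. Postn fell by 4.23 in controls, and the difference was 3.03 (adjusted p = 0.0176, lost without P10 mutant 2 or P10 control 1).

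Among the 11 that rose, the small proteoglycan biglycan, Bgn, went from 211, 211 and 237 to 795, 379 and 594 CPM (log2 change 1.43, SE 0.20, adjusted p = 9.47e-05), with a difference from controls of 1.83 (adjusted p = 0.0072, kept in each removal). Cilp, a cartilage protein, rose from 9.77, 14.2 and 11 to 84.6, 27.7 and 51.3 CPM (2.23) and had a change of -1.13 that did not pass in controls (adjusted p of the difference = 0.0136, lost without P10 control 1). Col8a1 rose by 2.33 and Fbln1 by 1.71. Fbln2, of the same fibulin family, rose in mutants (0.72) and fell in controls (-0.79). Ltbp2, which binds latent TGF-beta complexes and microfibrils, read 4.12, 5.08 and 8.84 CPM and then 44.4, 8.16 and 21.2 CPM. Its change of 2.03 was 1.3 without 7-month mutant 1 and missed the threshold without P10 mutant 1 or 2. Comp, another cartilage protein, was led by 7-month mutant 1 (36.4, 3.63 and 6.52 CPM), and its change of 3.31 became 1.72 without it and missed the threshold with voom or with the 6 mutants fitted alone. By the direct test 28 of the 53 had a more positive age change in mutants (8 without P10 control 1), and none a more negative one.

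Proteases and their inhibitors were higher in 6 of 18 cases and lower in 5, near the shares over all rows. Mmp3, stromelysin, rose from 0.126, 0.142 and 0.172 to 14.3, 4.78 and 9.18 CPM (5.96). The inhibitor Timp1 rose from 9.24, 10.3 and 11.5 to 44.1, 24.9 and 43.1 CPM (1.85) and fell in controls (-1.20, difference 3.05, adjusted p = 0.00376, kept in each removal). Timp4, the inhibitor typical of heart, rose by 2.13 in mutants and 2.52 in controls. Adamts19 fell by 3.04 and the membrane protease Mmp14 by 1.16. In TGF-beta and BMP signalling 10 of 25 rose (5 without 7-month mutant 1) and 5 fell (2 without P10 mutant 2 or 7-month mutant 3), among them Inhbb, an activin subunit (2.11), and Bmp7, a BMP ligand (-1.98).

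Among enzymes for the use of ketone bodies and branched-chain amino acids, 14 of 18 tested genes rose and none fell (median 0.69, controls 1.57). Bdh1 (chr16:31422297-31458901), which starts the oxidation of beta-hydroxybutyrate, went from 0.352, 0.231 and 0.517 CPM to 30.3, 25.2 and 31 CPM (log2 change 6.29, SE 0.20, adjusted p = 4.63e-10). It reached 119, 92.9 and 113 CPM in 7-month controls, and the difference was -1.66 (adjusted p = 0.0187, lost without P10 mutant 3 or P10 control 1 or 3). Oxct1, the next enzyme of that route, rose from 298, 313 and 269 to 638, 853 and 734 CPM (1.34). Bcat2 and Bckdha, which begin the breakdown of branched-chain amino acids, rose by 1.55 and 1.28. Of the 18 genes, 13 had a more negative age change in mutants than in controls (4 without P10 control 1).

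In the tricarboxylic acid cycle 4 of 18 rose and none fell, with a median of 0.04 in mutants and 0.76 in controls. Citrate synthase, Cs, read 822, 895 and 779 CPM and then 633, 913 and 675 CPM (-0.17, adjusted p = 0.31), and 1076, 1148 and 1155 CPM in 7-month controls (difference -0.79, adjusted p = 0.0242, lost in 7 of 12 removals). The members that rose were Suclg2 (0.66), Ogdh (0.63), Sdhb and Idh2 (0.46). By the direct test 14 of 18 had a more negative change in mutants (0 without P10 control 1) and none a more positive one. The summed level of the list was 10530, 11000 and 10160 CPM at P10 and 9912, 13940 and 10770 CPM at 7 months. 7-month mutant 1 lay just below the P10 range, 7-month mutant 3 within it and 7-month mutant 2 above it.

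Among genes of fatty acid uptake and oxidation 11 of 32 rose (6 without P10 mutant 3 or 7-month mutant 2) and 3 fell (1 without P10 mutant 2 or 7-month mutant 1). The median was 0.17 in mutants and 0.90 in controls. By the direct test 11 of the 32 had a more negative age change in mutants (0 without P10 control 1 and 21 without 7-month mutant 2) and none a more positive one. Lpl, the lipase that frees fatty acids from lipoproteins, rose from 804, 843 and 810 to 2758, 3188 and 2776 CPM (1.83), and Ech1 by 0.81. Cpt1b, the muscle gatekeeper of fatty acid entry into mitochondria, read 318, 313 and 277 CPM and then 368, 453 and 378 CPM (log2 change 0.40, SE 0.10, adjusted p = 0.00583). Per length, the liver and fetal form Cpt1a went from 8.35% ± 0.784 to 5.11% ± 0.699 of the pair. Acadvl, of long-chain oxidation, had a log2 value of 0.24 (adjusted p = 0.173) in mutants and rose by 0.99 in controls (adjusted p of the difference = 0.0371, lost in 8 of 12 removals).

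Subunits of the respiratory chain from nuclear genes mostly did not pass in mutants, with 8 of 35 higher and 2 lower (1 without P10 mutant 1 or 3 or 7-month mutant 3), near the shares over all rows for the rises. In controls 24 of the 35 rose and 2 fell, and the medians were 0.16 in mutants and 0.58 in controls. A more negative age change in mutants was called for 5 by the direct test. The 5 became 0 without P10 control 1 or P10 mutant 2 and 13 without 7-month mutant 2. Muscle isoforms of cytochrome oxidase rose, and their share over the ubiquitous forms grew. Cox7a1 rose from 282, 270 and 256 to 454, 646 and 568 CPM (1.04), Cox6a2 by 0.86 and Cox8b by 0.74. Per length, the ubiquitous Cox7a2 fell from 46.3% ± 0.856 to 32.0% ± 2.56 of the pair with Cox7a1 in mutants and from 47.7% ± 0.287 to 23.3% ± 0.276 in controls. Cox6a1 fell from 16.4% ± 1.03 to 6.85% ± 0.740 of the pair with Cox6a2. These shares are descriptions, with n = 3 and no test. Of 13 transcripts of the mitochondrial genome 3 rose (1 without P10 mutant 1, 2 or 3 or 7-month mutant 2 or 3) and 2 fell. In controls 9 of the 13 rose and 0 fell, and the medians were 0.11 in mutants and 0.93 in controls. The direct test called 3 of the 13 more negative in mutants. The 3 became 0 without P10 control 1, P10 mutant 2 or 7-month mutant 3, and 11 without 7-month control 1. mt-Co2 read 37740, 35820 and 37400 CPM and then 47420, 66540 and 60570 CPM (0.65) and mt-Nd5 fell by 1.03. Ppargc1a, the coactivator known as a driver of mitochondrial growth, read 28.7, 20.3 and 22.1 CPM and then 8.53, 20.5 and 10.2 CPM on its coding row (-0.86, adjusted p = 0.16), with overlap between ages. Its muscle target Perm1 rose by 0.89 and Esrrb, a nuclear receptor, by 1.24. Of 16 such regulators 7 rose and 1 fell. In controls 11 of the 16 rose and 2 fell, and the medians were 0.15 in mutants and 0.89 in controls. The direct test called 5 more negative in mutants (0 without P10 control 1, P10 mutant 2 or 7-month mutant 3).

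Glucose genes rose in most cases, 18 of 27 with 1 fall (0 without P10 mutant 1 or 3 or 7-month mutant 2), and the medians were 0.53 in mutants and 0.59 in controls. By the direct test 9 of the 27 had a more negative age change in mutants (1 without P10 control 1, P10 mutant 2 or 7-month mutant 3). Another 2 had a more positive one (0 without P10 control 1). Hk2, the insulin-responsive hexokinase, rose from 68.6, 64.6 and 56.3 to 127, 159 and 133 CPM (1.15) and Hk1 by 0.41. Pfkfb1, a regulator of phosphofructokinase, rose by 1.16 in mutants and 3.50 in controls (difference -2.34, adjusted p = 0.0136, lost without P10 control 1).

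**Figure D4:**
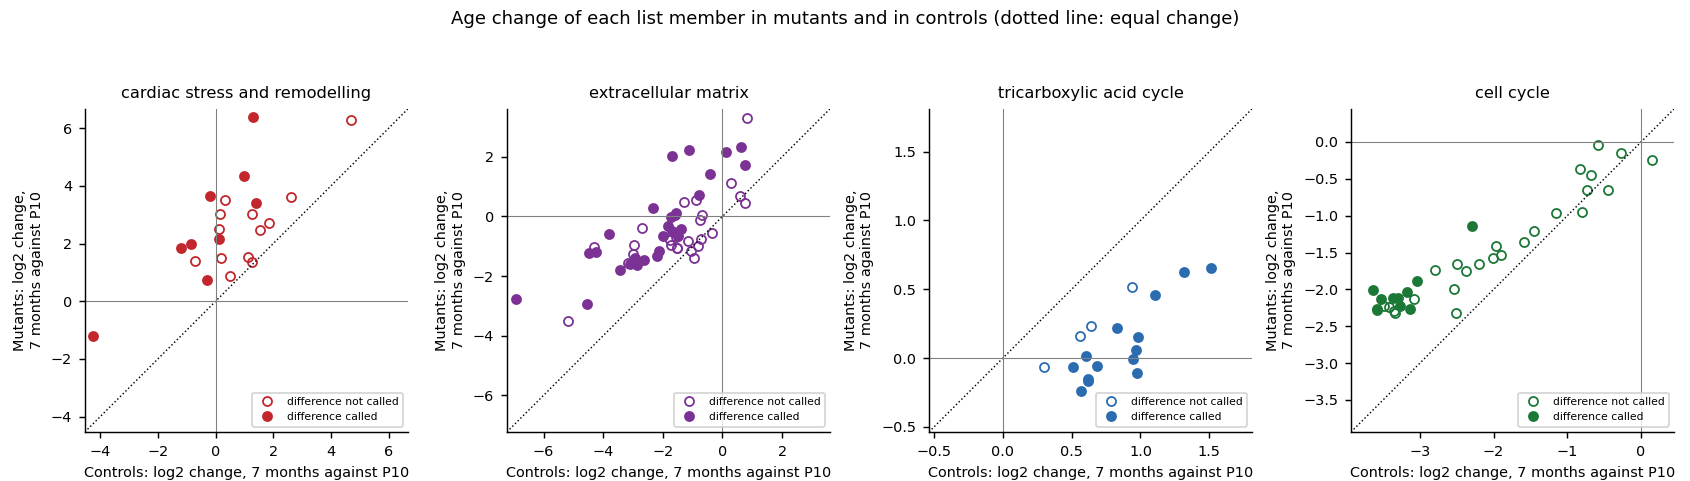
Log2 change from P10 to 7 months of each tested member of 4 lists in controls (horizontal) and mutants (vertical), with filled points where the difference between genotypes passed an adjusted p of 0.05 and a dotted line of equal change. Most members of the stress and matrix lists lie above the line, those of the tricarboxylic acid cycle lie below it, and the strongest cell cycle falls lie above it. The medians on the vertical axis are 2.50, -0.67, 0.04 and -1.75.

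Few calcium handling genes passed the test in mutants. Of 24 tested members 3 rose (5 without 7-month mutant 1) and 4 fell, and the median was 0.01, against 0.36 in controls. Atp2a2, the calcium pump of the sarcoplasmic reticulum, read 3906, 4050 and 3098 CPM at P10 and 3761, 5697 and 4467 CPM at 7 months (0.33, adjusted p = 0.137), and in controls it rose by 1.31 (difference -0.97, adjusted p = 0.0318, lost in 8 of 12 removals). The values of its inhibitor Pln, 0.18 (adjusted p = 0.409) and of the release channel Ryr2, -0.12 (adjusted p = 0.579), did not pass. Both had differences from controls that passed (-0.90, lost in 9 of 12 removals, and -0.97, lost in 8 of 12 removals). The ages overlapped for all 3 genes in mutants. The buffer and modulator S100a1 rose from 217, 209 and 228 to 628, 727 and 717 CPM (1.67) and Hrc, a calcium-binding protein of the store, by 1.09. Cav3, the caveolin of muscle, fell by 0.60. Of the 24 members, 7 had a more negative age change in mutants (1 without P10 control 1) and 2 a more positive one (0 without P10 mutant 2 or P10 control 1).

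Among ion channels 11 of 26 rose (7 without P10 mutant 3) and 4 fell. Scn4b, a sodium channel subunit, went from 0.126, 0.196 and 0.0574 to 8.62, 7.37 and 6.85 CPM (5.86). Kcnd3, which carries the transient outward current, rose by 2.77 and the silent subunit Kcnv2 by 4.71. Kcne1, a small subunit of a delayed rectifier channel, fell from 228, 249 and 256 to 71, 52 and 57.8 CPM (-2.02) and further in controls, to 8.6, 7.08 and 7.7 CPM (difference 2.70, adjusted p = 9.76e-06, kept in each removal). Kcnj2, of the inward rectifier current, read 26.8, 31.6 and 29.1 CPM and then 9.42, 24 and 17.7 CPM (-0.78) and rose in controls (1.07). Its fall in mutants was lost without P10 mutant 2, P10 mutant 3 or 7-month mutant 3. Erbb4, the neuregulin receptor of heart muscle, fell from 4.77, 5.26 and 6.2 to 1.33, 1.49 and 0.703 CPM (-2.20, difference -2.63, adjusted p = 0.00543, kept in each removal). Dmd, dystrophin, fell by 0.89 and rose in controls by 0.87.

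All 21 tested antigen presentation genes rose, with medians of 2.27 in mutants and 2.03 in controls, and none passed edgeR's test of the difference. At an unadjusted p of 0.05 this test had 5 of them, each more positive in mutants, and DESeq2 called 0. Class II molecules, which present antigen on macrophages, dendritic cells and B cells, rose most. H2-Aa read 3.84, 3.43 and 3.31 CPM at P10 and 119, 155 and 160 CPM at 7 months, a 41.1-fold rise (log2 change 5.36, SE 0.22, adjusted p = 6.43e-09). Cd74, their invariant chain, went from 7.78, 5.71 and 5.03 to 216, 269 and 297 CPM (5.41), H2-Eb1 from 2.81, 2.79 and 2.49 to 87.9, 104 and 112 CPM (5.23) and H2-Ab1 by 5.56. Ciita, the master activator of this class, rose from 0.151, 0.196 and 0.0766 to 2.16, 1.96 and 2.59 CPM (3.96). B2m, the light chain of class I molecules, rose from 123, 89.4 and 94.5 to 357, 462 and 389 CPM (1.98). Heavy chains of class I are near-identical copies, so reads may be divided among them.

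Class II promoters are known for an inverted CCAAT box close to the start. Of the tested antigen presentation genes, 16 had an entry in the promoter table. In the 250 upstream bases a CCAAT box in either orientation stood in 14 of the 16 (87.5%). The share was 36.2% over promoters of tested genes and 34.5% over all promoters. These 14 include class I genes such as B2m, so the share is not one of class II promoters or of the inverted box alone. Those of H2-Aa (chr17:34287824-34288073, minus strand) and H2-Eb1 (chr17:34305617-34305866, plus strand) are shown as the most strongly risen pair with an entry, with the box in capitals.
H2-Aa: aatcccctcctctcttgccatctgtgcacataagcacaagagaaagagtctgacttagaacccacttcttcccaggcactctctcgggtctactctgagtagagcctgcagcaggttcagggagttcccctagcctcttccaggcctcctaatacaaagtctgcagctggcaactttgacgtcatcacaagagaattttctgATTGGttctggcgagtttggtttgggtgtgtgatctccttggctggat
H2-Eb1: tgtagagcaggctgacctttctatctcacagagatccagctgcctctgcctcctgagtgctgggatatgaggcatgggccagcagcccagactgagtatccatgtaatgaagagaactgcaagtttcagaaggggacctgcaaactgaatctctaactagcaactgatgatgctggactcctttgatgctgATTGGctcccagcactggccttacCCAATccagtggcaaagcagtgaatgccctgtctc
In H2-Aa the box occurs once, as ATTGG. In H2-Eb1 it occurs in both orientations.

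Macrophage markers rose in 15 of 16 cases and fell in none in edgeR, though voom called 1 lower, with a median of 2.35, and their sum was 180, 160 and 140 CPM at P10 and 778, 784 and 862 CPM at 7 months. Controls reached 525, 525 and 405 CPM. Lyz2, lysozyme, went from 38.3, 34.4 and 29.9 to 234, 258 and 268 CPM (2.89, difference 0.99, adjusted p = 0.0155, lost without P10 control 1 or 3) and C1qa, of the first complement component, from 21.5, 17.1 and 16.4 to 114, 99.2 and 124 CPM (2.61, difference 1.07, lost in 5 of 12 removals). The scavenger receptor Cd163, typical of resident macrophages, rose from 2.49, 1.99 and 2.03 to 11.3, 12.3 and 12.3 CPM (2.47), close to its change in controls (2.33). The direct test called 5 of the 16 (0 without P10 control 1), each more positive in mutants. In the complement list 13 of 17 rose, with medians of 2.22 in mutants and 1.42 in controls. C3, the central component, went from 17.8, 5.74 and 7.18 to 213, 268 and 268 CPM (4.62, or 5.27 without P10 mutant 1) and C4b from 3.44, 1.78 and 2.68 to 83.5, 54.4 and 66.5 CPM (4.71). C4b has a near-identical copy, C4a, that did not pass. The complement list shares its 3 C1q chains with the macrophage list. In the interferon list 21 of 25 rose, led by Zbp1, a nucleic acid sensor (3.75), and Oas2, an antiviral synthetase (2.13, 1.81 and 1.17 to 23.9, 14.7 and 20.3 CPM, 3.54). Of 23 inflammatory and acute-phase genes 17 rose and 2 fell (0 without P10 mutant 3 or 7-month mutant 3), with medians of 1.99 in mutants and 1.45 in controls. Ccl6, a chemokine of myeloid cells, went from 1.16, 1.51 and 1.51 to 26, 26.6 and 34.8 CPM (4.37, difference 1.34, adjusted p = 0.0191, lost without P10 mutant 2 or P10 control 1).

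Markers of other cell types are given as measured facts beside these results, and their part in them was not tested. Of 15 endothelial markers 10 fell and 2 rose, and their sum was 2145, 2154 and 2069 CPM at P10 and 1653, 1625 and 1938 CPM at 7 months. Aplnr, the apelin receptor of growing vessels, fell from 184, 180 and 167 to 27.2, 27.7 and 39.5 CPM (-2.49), and Vwf, von Willebrand factor, rose from 33.9, 29.2 and 32.3 to 78.8, 68 and 70.2 CPM (1.19). Of 12 fibroblast markers 4 rose and 5 fell, with sums of 3662, 3726 and 4233 and 4984, 4012 and 4683 CPM. Gelsolin, Gsn, rose from 259, 236 and 266 to 2088, 1853 and 2151 CPM (3.00), while 3 collagens fell. Of 12 smooth muscle and pericyte markers 6 fell and 1, desmin (Des, 1.21), which heart muscle also makes, rose. Sums of these 12 overlapped, with 2410, 2572 and 2312 CPM at P10 and 3402, 2536 and 2956 CPM at 7 months. Epicardial markers fell in 6 of 10 cases. Of 10 heart muscle markers 1 rose (0 without P10 mutant 1, 2 or 3 or 7-month mutant 2 or 3 and 2 without 7-month mutant 1) and 1, Myh6, fell, and their sum was 55040, 53610 and 53490 CPM at P10 and 48950, 59510 and 52670 CPM at 7 months. In controls 8 of the 10 rose and 0 fell, and the medians were 0.10 in mutants and 0.68 in controls. Control sums were 51270, 41580 and 47240 CPM at P10 and 72100, 65080 and 72600 CPM at 7 months. The direct test called 3 of the 10 more negative in mutants (0 without P10 mutant 2 and 6 without 7-month mutant 2). T cell markers rose in 5 of 11 cases, B cell markers in 2 of 8 with 2 falls (1 without P10 mutant 1 or 2 or 7-month mutant 1 or 2), and neutrophil markers fell in 5 of 9 (2 without P10 mutant 3) with 2 rises. All these levels were low. T cell sums were 4.77, 4.27 and 4.54 CPM at P10 and 7.07, 9.22 and 7.88 CPM at 7 months. B cell sums (8.06, 6.78 and 5.03, then 7.76, 5.68 and 7.31 CPM) overlapped between ages. So did neutrophil sums (10.09, 10.38 and 13.43, then 13.62, 10.12 and 11.55 CPM). Of 8 white fat markers 5 rose. Adipoq, the adipocyte hormone adiponectin, had no count in the 3 P10 mutants and 1.02, 0.203 and 0.373 CPM at 7 months, which is at least 26.4-fold higher against a floor of 3 counts over the P10 group. Cfd and Cidec were also without a count at P10.

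Of 23 cardiac transcription factors 11 fell and none rose in edgeR, though voom called 1 higher, and of 16 Notch pathway genes 10 fell and none rose. In controls 7 of the transcription factors fell and 3 rose, and 10 of the Notch genes fell and 0 rose. Hey2, a Notch target that marks the compact ventricular wall, fell from 9.19, 10.3 and 14.3 to 4.31, 3.65 and 3.6 CPM (-1.55). Among hormone receptors and their targets 6 of 16 rose and 3 fell. The thyroid receptor Thra fell by 0.53. Fkbp5, a glucocorticoid target, rose from 5.8, 5.71 and 5.97 to 15.7, 16.7 and 17.2 CPM (1.5), and Klf15, a glucocorticoid-responsive regulator of metabolism, by 1.13, with 2.52 in controls (adjusted p of the difference = 0.0183, lost without P10 control 1 or 3). Of 19 clock genes 4 rose and 3 fell. The labels used here give no hour of collection.

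Few genes changed in opposite directions. Of the 108 called that way, 49 were higher in 7-month than in P10 mutants and lower in 7-month than in P10 controls, and 59 the reverse. Named here after their values were seen, the first set held Timp1, Fbln2, Cdkn1a and Adamtsl2 (1.45 in mutants, -1.69 in controls, with the mutant call lost without P10 mutant 3), and the second held Myh6, Dmd and Kcnj2. Of 2412 rows called in mutants and not in controls, 378 (15.7%) also passed the test of the difference, so a call in mutants alone does not by itself show that the age change differed. Mfap4, a microfibril protein, fell by 1.22 in mutants and by 4.47 in controls (difference 3.26, lost without P10 mutant 2 or P10 control 1). Its fall in mutants was lost without any of the 3 P10 mutants or without 7-month mutant 3, and was -1.92 without 7-month mutant 1. On the negative side, Myot, myotilin of the Z-disc, rose by 1.82 in mutants and 4.05 in controls (difference -2.23, adjusted p = 0.00697, kept in each removal). Hnmt, which inactivates histamine (-2.04, kept in each removal), Tmem150c, a membrane protein (-2.54, kept in each removal), and Cyp26b1, which breaks down retinoic acid (-2.91, lost without P10 mutant 2 or P10 control 1 or 3), did not pass in mutants and rose in controls. The non-coding row of Sh3kbp1 had the most negative difference (-12.29, lost without P10 control 1), but its coding row, with 139, 150 and 159 and 98.5, 128 and 98.8 CPM in mutants, differed by only -0.39 (adjusted p = 0.208).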

How the data were processed

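Whole-heart RNA of 12 samples, 3 in each of 4 groups, was made into poly-A selected stranded libraries, each run on 2 lanes. The labels name 1 numbered heart per sample. Whether P10 mutant 3, which held both Xist and Y-linked transcripts, was a single heart was not tested. The authors deposited, per lane and gene row, expected counts (estimated counts of RSEM, which need not be whole) and TPM. Per the submitters' processing notes these came from RSEM 1.3.0 with Bowtie 1.1.2 on GRCm38.p6, and per the file headers coding and non-coding transcripts of a symbol have separate rows. RSEM divides reads that match several genes, so copies of a gene share an uncertain total.

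Expected counts of both lanes were summed per library and rounded. Rows that reached a count of about 10 in a group's number of libraries were kept (filterByExpr), which left 15478 and set aside 9620. Counts were scaled by TMM and fitted in edgeR 4.0.16 (R 4.3.3) with 1 mean per group over all 12 libraries, 8 residual degrees of freedom and robust quasi-likelihood F tests, adjusted by the Benjamini-Hochberg method at 0.05. Standard errors are of the log2 change. CPM values use TMM library sizes. TPM, as deposited and averaged over lanes, served only for shares within gene pairs. The same steps, tested on simulated data for the mutant comparison with 15254 genes, recovered 84% of genes changed by 1 and 96% of those changed by 2 on the log2 scale, with 6.25% false calls. The simulation changed only 100 genes by each size, none of low level, with rises and falls in balance and a spread taken from these data. In the actual comparison 48.3% of rows passed, so its rates may differ from these. The labels give the replicates by number only, and a p-value here reflects the variation among the samples at hand, which may be technical. The floor of 3 counts covers counting error only.

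Alternatives were RLE scaling, DESeq2 1.42.0, voom in limma 3.58.1, no filter, rows of a symbol summed, mitochondrial rows left out, a replicate block, fits of 1 genotype alone, and leaving out each library. Genes were named if past the threshold, at 5 CPM or more in the higher group and without overlap between ages, the 12 largest each way, and likewise the 8 largest differences each way, with up to 4 members per list and a fixed set of 20 heart genes, beside a few on which a result turns. The members, lists and tests were chosen with earlier results of these data known. Sequences are from the RefSeq promoter table of GRCm38.p6, and 15438 rows matched its gene table. Some genes that the naming rule picks are not reported here.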

Additional observations from a re-analysis of the deposited data

Results flagged for a closer look

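For 62 genes of the text the change from P10 to 7 months differed between the genotypes by the direct test, with each value below being the log2 age change in mutants minus that in controls. Each passed an adjusted p of 0.05 in edgeR's quasi-likelihood test over all rows, and how many kept that call when single libraries were removed is given in the report.

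The difference was positive for stress and growth-restraint genes, at Sprr1a 5.09, Nppa 3.85, Gdf15 3.35, Spp1 2.06, Nppb 1.98 and Cdkn1a 1.52. It was positive for matrix genes and their proteases and inhibitors, at Ltbp2 3.73, Cilp 3.35, Mfap4 3.26, Tnc 3.2, Adamtsl2 3.14, Timp1 3.05, Postn 3.03, Bgn 1.83, Cthrc1 1.76, Col8a1 1.72, Col1a1 1.63, Fbn2 1.61, Col3a1 1.52, Fbln2 1.5, Mmp14 1.1 and Fbln1 0.948. It was positive for genes of immune cells and complement, at Ccl6 1.34, C4b 1.18, C1qa 1.07 and Lyz2 0.995, for the dividing-cell genes Cdk1 1.31 and Rrm2 0.869, for the channel subunit Kcne1 2.7, and for Dbh 1.46, Mest 1.3 and Vwf 0.796.

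The difference was negative for genes of fuel oxidation and its regulation, at Bdh1 -1.66, Klf15 -1.39, Bckdha -0.94, Ech1 -0.879, Suclg2 -0.857, Cs -0.788, Esrrb -0.781, Acadvl -0.746, Ogdh -0.69, Idh2 -0.648 and Perm1 -0.577, and of sugar use, at Pfkfb1 -2.34 and Hk2 -0.608. It was negative for genes of contraction, calcium and membrane, at Myot -2.23, Kcnj2 -1.84, Dmd -1.76, Cmya5 -1.23, Myh6 -1.01, Atp2a2 -0.974, Ryr2 -0.973, Pln -0.896 and Hrc -0.864, and for the signalling genes Erbb4 -2.63, Irs1 -1.38 and Aplnr -0.79. The remaining negative values were those of Cyp26b1 -2.91, Tmem150c -2.54, Hnmt -2.04 and Jarid2 -0.651 and, on the non-coding row of Sh3kbp1, -12.3. Groups of 3 libraries are too small for a search for single outlying values.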

How the results depend on the processing

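In mutants the count of 7480 rows that changed with age ran from 5442 (DESeq2) to 7917 (the 6 mutants alone), and from 6176 to 7062 when 1 mutant library was left out. Rows lower at 7 months numbered 2343 with DESeq2 against 3704. For the difference between genotypes DESeq2 called 459 rows with a more negative change in mutants against 698. With 1 of 12 libraries left out, rows with a difference ran from 184 to 2548, those more positive in mutants from 104 to 1226 and those more negative from 80 to 1354. The age change of the non-coding Sh3kbp1 row in controls, 9.65 on the log2 scale, became -0.0446 once its coding row was added, since the sum holds both rows of the gene. For the others the cause was not tested.

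The replicate numbers are those of the labels. Deviations of mutant libraries with the same number correlated at -0.0068, 0.139 and 0.073 between ages, and those with unlike numbers at -0.141 to 0.074. In controls the same-number values were 0.028, 0.039 and 0.037, and the highest of the others was 0.0065. These values do not settle whether the numbers pair the samples, and the labels tie no P10 heart to a 7-month heart. With the number as a block, 7812 rows passed in mutants and 1531 for the difference.

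Depth limits P10 control 2, which held 241419 counts and enters the control and difference values and the fit shared with the mutants. Without it the mutant comparison called 7787 rows. With 3 hearts per age, a gene that misses the threshold is not shown to be unchanged.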

Other observations

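Genes known from inherited dilated cardiomyopathy rose more often than they fell in the mutants. Of 29 tested members 16 rose and 4 fell (2 without 7-month mutant 3), with medians of 0.40 in mutants and 0.72 in controls. Filamin C, Flnc, went from 128, 133 and 125 CPM in P10 mutants to 428, 279 and 290 CPM at 7 months (log2 change 1.36, SE 0.13, adjusted p = 3.18e-06), and all older hearts lay above all younger ones. Sgcd, a sarcoglycan of the muscle membrane, rose from 3.84, 4.37 and 4.13 to 8.62, 7.6 and 7.4 CPM (0.93). The list shares Ankrd1, Bag3, Csrp3, Mybpc3, Tcap and others with the lists of the report, so its counts are not separate from theirs.

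Transcripts of nerve and Schwann cells were low and rose in 5 of 9 cases, with sums of 25.7, 27.4 and 28.7 CPM at P10 and 53.3, 68.4 and 53.2 CPM at 7 months. Gpm6b, a membrane glycoprotein of myelinating cells and neurons, went from 6.2, 6.81 and 6.74 to 21.7, 21.8 and 22 CPM (1.73), close to its change in controls (1.60). Dbh, dopamine beta-hydroxylase, which makes noradrenaline, read 7.66, 8.57 and 8.57 CPM and then 12.1, 19.5 and 15.1 CPM (0.91) in mutants and 4.83, 0 and 6.59 CPM and then 3.32, 4.4 and 3.79 CPM in controls (difference 1.46, adjusted p = 0.0155, lost without P10 control 3). Of 10 red cell markers 1 fell, the transferrin receptor Tfrc (206, 260 and 198 to 50.7, 59.1 and 57.1 CPM, -1.99), while the globin Hba-a1 read 1681, 1719 and 1381 CPM and then 1554, 1332 and 1432 CPM, with overlap between ages. Among inhibitors of the cell cycle and senescence genes 4 of 13 rose and 4 fell, and Ccng1, a target of p53, had the smallest adjusted p (232, 249 and 219 to 405, 550 and 435 CPM, 0.99).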
